A study of Mus musculus with 9 samples.

Results

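Eicosanoids are lipid mediators made from arachidonic acid, and the genes described here encode 10 of the proteins that make them, chosen by gene symbol from the 55322 genes of the expression table. They are Alox15, Alox5, Alox5ap, Ptgs1, Ptgs2, Ptgis, Ptges, Hpgds, Ltc4s and Lta4h, and each was found in the table. RNA was sequenced from 3 groups of 3 libraries, all from wild-type C57BL/6 mice. Peritoneal macrophages (PMs) were sorted as CD11b+F4/80+ cells from the peritoneal cavity of naive, untreated mice. For the B cells, mice received LPS, a bacterial endotoxin, intraperitoneally at 5 mg/kg, and 48 h later CD11b- and CD11b+ B cells were taken from the BM by sorting. CD11b is the integrin chain encoded by Itgam and is usually a surface marker of myeloid cells. PMs thus differed from both B cell groups in cell type, tissue and LPS at once, and these cannot be told apart. No B cells of untreated mice were analysed here, so nothing below measures an effect of LPS. Values are FPKM, reads scaled to exon length and to the reads on genes of the library. They are given for replicates 1, 2 and 3 in that order and can be compared between genes. Comparisons between libraries rest on this scaling, under which the bulk of genes was shifted between B cells and PMs, as given below.

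Arachidonic acid is released from membrane lipids by phospholipases A2 and then enters one of several branches. In the cyclooxygenase branch, Ptgs1 (COX-1, usually present at rest) or Ptgs2 (COX-2, usually induced) makes prostaglandin H2, from which terminal synthases make single products. Ptges makes prostaglandin E2, Ptgis makes prostacyclin and Hpgds makes prostaglandin D2. In the lipoxygenase branch, Alox5 with its membrane partner Alox5ap makes leukotriene A4, which Lta4h converts to leukotriene B4, a neutrophil attractant, and Ltc4s to leukotriene C4, the parent of the cysteinyl leukotrienes. Alox15, the leukocyte 12/15-lipoxygenase of the mouse, oxidizes arachidonic acid and membrane lipids directly. Peritoneal macrophages are a classical source of prostacyclin and cysteinyl leukotrienes.

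The start of a gene is where these cell types could read it differently, so the promoters of 5 members are shown, each 300 bases long on GRCm38.p6 from RefSeq, running 5′ to 3′ on the strand of the gene from 250 bases before the start to 50 after it. RefSeq promoters were found for 7 of the 10 members. Ptgs1 and Ptgs2 are shown as the pair of cyclooxygenases that lay farthest apart in PMs, Alox5 and Ltc4s as leukotriene genes high in PMs, and Hpgds as the member lowest in PMs of those tested. Capitals mark matches, on either strand, to the letters GAGGAA, a core bound by PU.1, the transcription factor shared by macrophages and B cells, and to GGGCGG, the GC box. A match on the opposite strand appears as the reverse complement, which is TTCCTC for the PU.1 core. The positions are chr2:36230176-36230475 on the + strand for Ptgs1, chr1:150099781-150100080 on the + strand for Ptgs2, chr6:116461129-116461428 on the - strand for Alox5, chr11:50238483-50238782 on the - strand for Ltc4s, and chr6:65144681-65144980 on the - strand for Hpgds.
Ptgs1: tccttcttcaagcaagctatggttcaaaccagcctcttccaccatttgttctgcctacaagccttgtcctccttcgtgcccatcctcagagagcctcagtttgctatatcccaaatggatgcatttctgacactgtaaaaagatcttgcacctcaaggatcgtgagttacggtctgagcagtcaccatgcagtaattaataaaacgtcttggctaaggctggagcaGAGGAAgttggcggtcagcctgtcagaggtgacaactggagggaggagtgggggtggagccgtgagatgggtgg
Ptgs2: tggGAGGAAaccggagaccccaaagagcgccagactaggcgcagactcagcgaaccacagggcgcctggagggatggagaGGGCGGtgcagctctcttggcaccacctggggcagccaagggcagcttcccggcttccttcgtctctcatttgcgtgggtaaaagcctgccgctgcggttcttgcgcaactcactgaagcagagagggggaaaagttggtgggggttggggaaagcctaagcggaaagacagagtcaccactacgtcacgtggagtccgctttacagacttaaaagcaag
Alox5: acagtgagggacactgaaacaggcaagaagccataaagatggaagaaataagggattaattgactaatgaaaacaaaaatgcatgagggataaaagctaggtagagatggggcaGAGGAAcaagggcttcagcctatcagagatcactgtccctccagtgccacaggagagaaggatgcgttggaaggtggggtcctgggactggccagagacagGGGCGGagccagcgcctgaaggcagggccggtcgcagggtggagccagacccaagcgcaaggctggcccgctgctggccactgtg
Ltc4s: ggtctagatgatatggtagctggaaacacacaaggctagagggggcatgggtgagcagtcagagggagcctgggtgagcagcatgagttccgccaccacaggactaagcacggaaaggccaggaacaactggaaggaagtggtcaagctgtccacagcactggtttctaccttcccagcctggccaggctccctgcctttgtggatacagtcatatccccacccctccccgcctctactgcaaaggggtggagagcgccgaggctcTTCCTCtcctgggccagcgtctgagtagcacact
Hpgds: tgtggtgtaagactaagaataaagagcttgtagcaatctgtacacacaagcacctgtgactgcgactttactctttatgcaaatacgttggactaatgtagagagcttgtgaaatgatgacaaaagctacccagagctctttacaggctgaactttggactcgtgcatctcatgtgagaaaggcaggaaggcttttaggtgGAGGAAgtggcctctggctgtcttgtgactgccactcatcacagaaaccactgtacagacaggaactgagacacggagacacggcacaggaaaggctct

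The letters GAGGAA were in all 7 member promoters and in 28.3% of the 32851 RefSeq promoters of this length. They were thus in genes high in PMs (Ptgs1, Alox5, Ltc4s, Ptges) and in genes at or near 0 there (Ptgs2, Hpgds). They were also in Lta4h, whose levels overlapped between the groups. Their first base lay at position -24 from the start in Ptgs1 and at -247 in Ptgs2. The GC box was in Alox5, Ptgs2 and Ptges, against 35.7% of all promoters. The core promoter element with the letters TATAAA was in none of the 7 windows, against 13.6% of all promoters. The motif of erythroid and mast cell factors with the letters AGATAA was also in none, against 11.2% of all promoters. A match is a description of letters and shows no binding.

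Libraries held 18014658 to 35251215 reads on genes. The sorts were reflected in the transcripts. The sums over 7 B cell markers (Cd79a, Ms4a1, Pax5 and others) were 4037–4498 FPKM in CD11b+ B cells and 5224–5484 in CD11b- B cells, and 54.4–87.5 in PMs. Itgam, which encodes CD11b, was at 1.31–1.92, 0.251–0.869 and 251–358 FPKM in the same order. CD11b+ B cell libraries also held neutrophil transcripts, with 10 markers (S100a8, S100a9, Ngp and others) summing to 640, 1540 and 215 FPKM, against 1.76–3.004 in CD11b- B cells and 4.26–21.4 in PMs, where Ly6g was at 0. By the methods of the study, cells carrying Gr-1, a surface marker of neutrophils, were removed with magnetic beads before B cell lineages were sorted. Its sentence on the sort for RNA sequencing does not repeat this step. The study itself lists Ngp, Ly6g and Lyz2 among the myeloid genes upregulated in its CD11b+ B cells. The sums over 8 monocyte and macrophage markers were 281, 260 and 82.5 FPKM in CD11b+ B cells and 34.5–47.1 in CD11b- B cells, and PMs held 19651–54424. Lyz2, which neutrophils also make, was most of these sums. Without Lyz2, CD11b+ B cells held sums of 19.7, 20.02 and 17.1 FPKM over the other 7 markers, CD11b- B cells 3.64–7.08 and PMs 994–1460. In bulk RNA, fewer cells of a type and less RNA per cell cannot be told apart. The study gives FPKM with an SD, which its methods keep for biological replicates, but the labels do not say whether each library came from a separate mouse, and p-values below measure the spread between these libraries.

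**Figure D1:**
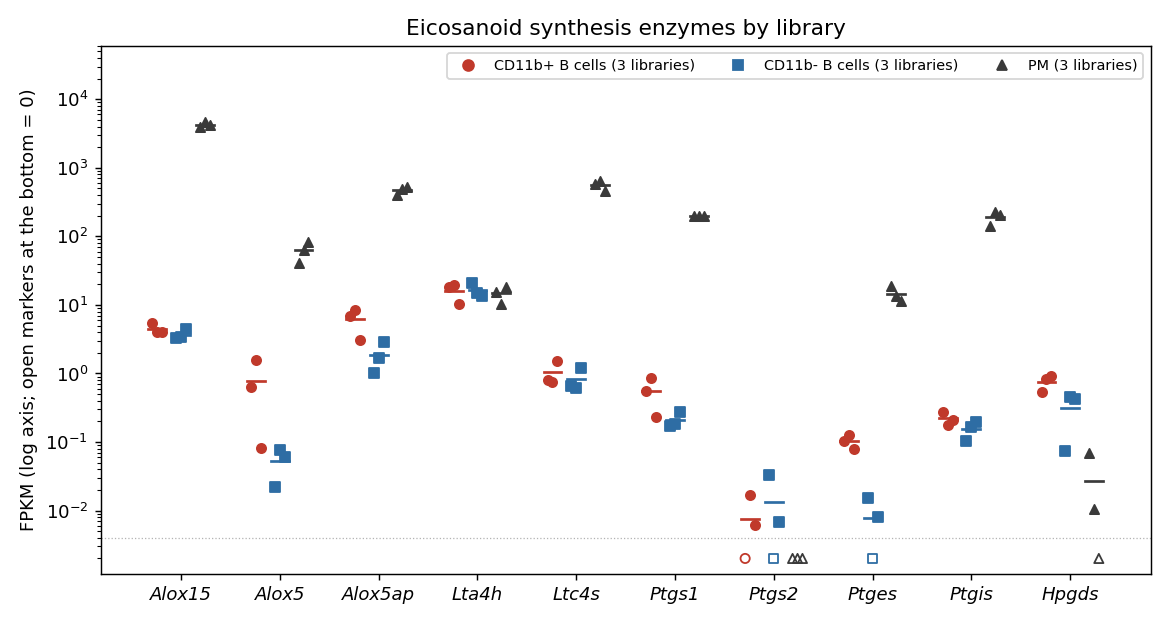
FPKM of the 10 genes on a log axis, with 1 marker per library, horizontal bars at group means and open markers at the bottom for libraries at 0. In 7 genes the 3 PM libraries lie far above all B cell libraries, whereas Lta4h is at 10.2–20.6 FPKM in every library, Hpgds is lowest in PMs and Ptgs2 is at or near 0 throughout.

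PMs held a very different enzyme set from both B cell groups, in which Lta4h, Alox5ap and Alox15 took the highest shares. In PMs, the 10 genes summed to 5363, 6273 and 5762 FPKM, and Alox15 alone took 73.8 ± 0.0489% of the sum (SD, n = 3). Ltc4s took 9.67% of it and Alox5ap 8.21%, whereas Lta4h took 0.257%. In CD11b+ B cells the sums were 33.4, 36.3 and 20.4 FPKM. Lta4h led there with 52.6 ± 2.16%, followed by Alox5ap with 19.8 ± 4.34% and Alox15 with 15.7 ± 4.396%. In CD11b- B cells the sums were 25.96, 21.7 and 22.9 FPKM, and Lta4h took 69.3 ± 10.2%, Alox15 15.9 ± 3.26% and Alox5ap 8.03 ± 4.29%. The share of Alox5ap was 14.99–23.4% in CD11b+ and 3.90–12.5% in CD11b- B cells, and the share of Lta4h was 50.2–54.2% and 58.9–79.2%. The shares of Alox5 (0.407–4.39% and 0.0843–0.354%) and Ptges (0.311–0.389% and 0–0.0587%) did not overlap between the B cell groups either. Shares of one sum are not independent, and in FPKM Lta4h overlapped.

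**Figure D2:**
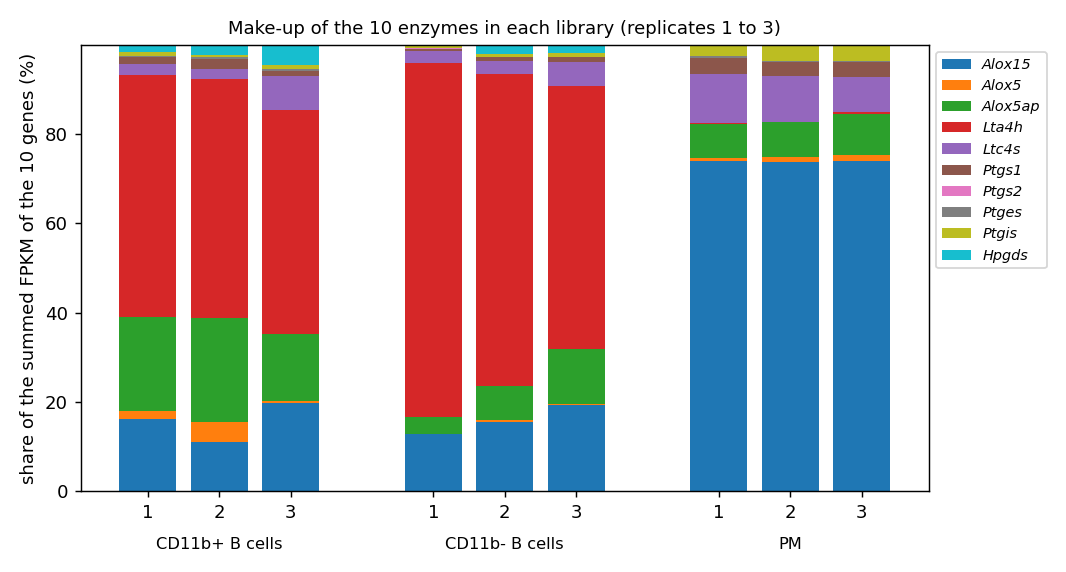
Stacked bars give the share (%) of each gene in the summed FPKM of the 10 genes, for each of the 9 libraries. Alox15 fills 73.8% of the PM bars on average, and Lta4h fills 52.6% of the CD11b+ and 69.3% of the CD11b- B cell bars.

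Alox15 was by far the most abundant member in PMs. It was at 3963, 4629 and 4255 FPKM there, the 13th highest mean of all genes. CD11b+ B cells held 5.40, 4.001 and 4.03 FPKM, and CD11b- B cells 3.31, 3.37 and 4.41 FPKM. The B cell groups overlapped, and all 6 B cell libraries lay far below all PM libraries. Unless another setting is named, limma differences here are on the scale of log2(FPKM + 1). For Alox15 the difference from PMs was -9.62 ± 0.19 (SE) in CD11b+ B cells (limma, adjusted p = 3.60e-07). In CD11b- B cells it was -9.84 ± 0.16 (limma, adjusted p = 2.53e-07).

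Alox5 and Alox5ap, the 2 parts of the leukotriene-starting machinery, were both highest in PMs, and were the members with the highest ratio of means between B cell groups among those with over 10 reads in each. Alox5 was at 40.4, 63.2 and 83.8 FPKM in PMs. In CD11b+ B cells it was at 0.630, 1.59 and 0.0829 FPKM (76, 171 and 12 reads), and in CD11b- B cells at 0.0219, 0.0768 and 0.0608 FPKM (22 reads in all). Replicates 1 and 2 of the CD11b+ B cells stood apart from the CD11b- B cells, whereas replicate 3 lay just above their highest library. Alox5ap was at 407, 490 and 532 FPKM in PMs. In CD11b+ B cells it was at 6.98, 8.50 and 3.06 FPKM, and in CD11b- B cells at 1.013, 1.68 and 2.86 FPKM. The groups did not overlap, but the lowest CD11b+ library and the highest CD11b- library, both numbered 3, were close. The differences from PMs were -5.20 ± 0.38 for Alox5 and -6.13 ± 0.32 for Alox5ap in CD11b+ B cells (limma, adjusted p = 4.11e-05 and 6.07e-06). In CD11b- B cells they were -5.85 ± 0.28 and -7.43 ± 0.25 (limma, adjusted p = 5.30e-06 and 1.07e-06).

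The downstream leukotriene enzymes parted ways. Ltc4s, the enzyme of the cysteinyl branch, was at 580, 640 and 460 FPKM in PMs, the 77th highest mean of all genes. It was at 0.806, 0.754 and 1.54 FPKM in CD11b+ B cells and at 0.650, 0.622 and 1.1998 FPKM in CD11b- B cells. The B cell groups overlapped, and the differences from PMs were -8.12 ± 0.22 and -8.27 ± 0.20 (limma, adjusted p = 5.19e-07 and 3.44e-07). Lta4h, the enzyme of the leukotriene B4 branch, was at 15.6, 10.4 and 18.1 FPKM in PMs, at 18.1, 19.4 and 10.2 in CD11b+ B cells and at 20.6, 15.1 and 13.5 in CD11b- B cells. All 3 groups overlapped. The limma difference from PMs was 0.09 (95% CI -0.61 to 0.79) for CD11b+ and 0.16 (95% CI -0.44 to 0.76) for CD11b- B cells, and -0.07 (95% CI -0.67 to 0.53) between the B cell groups. These intervals do not show equal levels. With median-ratio scaling, which centres the bulk of genes, the Lta4h differences from PMs were -0.38 and -0.34. The median difference from PMs over genes at a mean of 1 FPKM or more was 0.53 in both comparisons as scaled by the authors, and 0.12 and 0.10 after that scaling.

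Of the cyclooxygenases, PMs held Ptgs1 and no read of Ptgs2. Ptgs1 was at 199, 198 and 195 FPKM in PMs, with an SD of 1.93 around a mean of 197. CD11b+ B cells held 0.561, 0.856 and 0.234 FPKM of it and CD11b- B cells 0.170, 0.184 and 0.273 FPKM. Replicate 3 of the CD11b+ B cells lay within reach of the CD11b- B cells, so the B cell groups overlapped. The differences of Ptgs1 from PMs were -7.02 ± 0.21 for CD11b+ and -7.36 ± 0.16 for CD11b- B cells (limma, adjusted p = 6.17e-07 and 2.53e-07). Ptgs2 had 0 reads in each PM library, which allows up to 3 reads over the group, or 0.00972 FPKM. Against that limit, Ptgs1 was at least 20312-fold higher than Ptgs2 in PMs, and at least 11481-fold higher without PM replicate 2, the deepest PM library. CD11b+ B cells had 0, 2 and 1 reads of Ptgs2 and CD11b- B cells 5, 0 and 1, and the gene was below the mean of 0.05 FPKM required for testing in every comparison. Ptgs2 transcript was thus at the limit of detection in all 9 libraries, including the 6 from LPS-treated mice. The promoters printed above share the letters GAGGAA, and the GC box is in that of Ptgs2 but not in that of Ptgs1.

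The terminal prostaglandin synthases went 2 ways. Ptgis, the prostacyclin synthase, was at 140, 229 and 206 FPKM in PMs, at 0.279, 0.179 and 0.210 in CD11b+ B cells and at 0.105, 0.167 and 0.194 in CD11b- B cells. Ptges, the inducible prostaglandin E2 synthase, was at 18.7, 13.7 and 11.4 FPKM in PMs, at 0.104, 0.126 and 0.0794 in CD11b+ B cells (36 reads) and at 0.0152, 0 and 0.00794 in CD11b- B cells (3 reads). Both were lower in each B cell group than in PMs without overlap, by -7.27 ± 0.23 and -7.35 ± 0.22 for Ptgis and by -3.79 ± 0.29 and -3.92 ± 0.27 for Ptges, CD11b+ B cells named before CD11b- B cells each time. The adjusted p of limma was 7.33e-07 and 6.75e-07 for Ptgis and 4.86e-05 and 3.39e-05 for Ptges. The added 1 FPKM understates such differences for a gene as low as Ptges in B cells.

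Hpgds, the hematopoietic prostaglandin D2 synthase, had the opposite order. It was at 0.0691, 0.0107 and 0 FPKM in PMs (10 reads in all), at 0.0746, 0.450 and 0.418 in CD11b- B cells (203 reads) and at 0.535, 0.832 and 0.918 in CD11b+ B cells (449 reads). Each CD11b+ library lay above each CD11b- library, and each CD11b- library above each PM library, although CD11b- replicate 1 was close to the highest PM library. Compared with PMs, the difference was 0.77 ± 0.18 for CD11b+ B cells (limma, adjusted p = 0.0134) and 0.34 ± 0.16 for CD11b- B cells (limma, adjusted p = 0.127). The size rests on the added 1 FPKM, as the CD11b+ difference was 2.78 and 4.89 with 0.1 and 0.01 FPKM added and 4.44 and 4.48 with edgeR and DESeq2 on whole reads. With 8, 2 and 0 reads in PMs, no ratio of means is given. The call in CD11b+ B cells was lost by a narrow margin without PM replicate 2 (limma, adjusted p = 0.0502) or PM replicate 3 (limma, adjusted p = 0.0506). Without CD11b- replicate 1, the CD11b- difference was 0.48 and passed the threshold (limma, adjusted p = 0.0402). Hpgds is known from mast cells and some other myeloid cells, and 10 basophil and mast cell markers summed to 3.003–3.38 FPKM in CD11b+ B cells, with all 10 detected. Single markers were uneven there, as Prss34 was at 0.670, 0 and 2.37 FPKM, Mcpt8 at 0.443, 0.727 and 0 and Fcer1a at 1.09, 0.0766 and 0.0853. They summed to 0.131–0.477 FPKM in CD11b- B cells, with Prss34 and Cma1 at 0, and to 15.9–23.3 FPKM in PMs, with Fcer1a, Mcpt8 and Prss34 at 0 and Hdc (10.9), Cma1 (4.95) and Tpsb2 (3.86) making most of the sum. Kit averaged 0.0157 FPKM in CD11b+ B cells and 0.116 in CD11b- B cells, where replicate 3 set the mean (0.0135, 0.0193 and 0.315). Tpsb2 averaged 0.00593 FPKM in CD11b+ and 0.0125 in CD11b- B cells. The part of such cells in the Hpgds values was not tested.

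Against PMs, the same members were lower in both B cell groups. Alox15, Alox5, Alox5ap, Ptgs1, Ptgis, Ptges and Ltc4s were lower by limma at an adjusted p under 0.05 in CD11b+ B cells, 7 of 9 tested, where 8.78% of all tested genes were lower. The same 7 were lower in CD11b- B cells, where 11.0% of all tested genes were. In CD11b+ B cells 1 of 9 was higher (Hpgds), against 21.5% of all tested genes, and in CD11b- B cells 0 of 9, against 25.8%. In the latter comparison 7 members had an unadjusted limma p under 0.05, all of them lower, where 13.5% of all tested genes were lower at that threshold, and edgeR and DESeq2 on whole reads also called 0 members higher. The libraries did not overlap for the 7 lower members in either comparison, where this held downward for 12.4% of all genes with CD11b+ B cells and 15.2% with CD11b- B cells. Upward, it held for Hpgds in both, and for 34.3% and 36.1% of all genes. The median difference of the 9 tested members was -6.13 with CD11b+ and -7.35 with CD11b- B cells, against 0.25 and 0.24 over all tested genes. Ptges in CD11b- B cells and Hpgds in PMs were under 0.05 FPKM on average, so there they were tested only through the group in which they were higher. Leaving these out, 7 of 8 members were lower with CD11b+ and 6 of 7 with CD11b- B cells. Both comparisons share the 3 PM libraries. With 3 libraries against 3, the exact two-sided permutation test on mean FPKM cannot give less than 0.1, the value of each of the 7 in both comparisons.

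**Figure D3:**
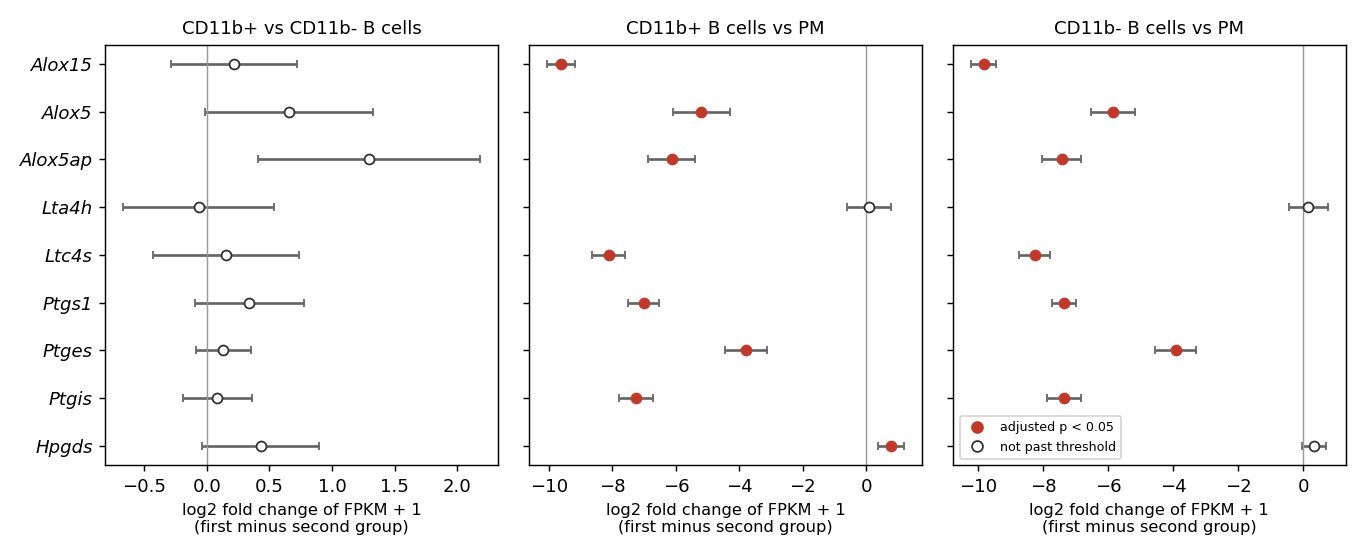
Differences in log2(FPKM + 1) for the 9 tested members in each comparison, as first minus second group, with 95% CI bars of limma on 6 libraries. Filled points passed an adjusted p of 0.05, which are 7 lower members in each comparison with PMs and Hpgds in CD11b+ B cells against PMs.

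Set against PMs, the 7 genes high in PMs were at 0.0530% to 0.388% of their PM mean in CD11b- B cells. Ptges was lowest at 0.0530% (3 reads), Ptgis was at 0.0811%, Alox5 at 0.0851%, Alox15 at 0.0864%, Ptgs1 at 0.106% and Ltc4s at 0.147%, and Alox5ap was highest. Markers of resident peritoneal macrophages, which B cells of the BM are not known to make, spanned a range that overlaps these in CD11b- B cells, with Timd4 at 0.0682%, Saa3 at 0.0736%, Cxcl13 at 0.0800%, Prg4 at 0.0963% and Gata6, the transcription factor of these macrophages, at 0.0980% of the PM mean. Selp (0.224%), Garnl3 (0.247%) and Icam2 (11.0%), the rest of that list, were higher, and Icam2 is also made by lymphocytes. All 8 markers were detected in both B cell groups, with summed levels of 69.3–77.3 FPKM in CD11b+ and 70.0–86.2 in CD11b- B cells, against 7984–13486 in PMs. Icam2 made most of the B cell sums, and the other 7 markers summed to 10.1–18.0 FPKM in CD11b+ and 6.27–9.09 in CD11b- B cells, so that the order of the groups turned. Among the 504 genes with a PM mean of at least 100 FPKM, the lowest 1% were under 0.0682% of their PM mean in CD11b- B cells and the lowest 5% under 0.0898%, whereas the median was 50.8%. This comparison was chosen after the values had been seen. The part of PM RNA or reads in the B cell values of these genes was not tested.

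In CD11b+ B cells the same genes spread further. Alox15 was at 0.105% of its PM mean and Ptgis at 0.116%, close to Prg4 (0.120%) and Cxcl13 (0.125%). Ltc4s was at 0.184%, Ptgs1 at 0.279%, Ptges at 0.707%, Alox5 at 1.23% and Alox5ap at 1.30%. The Alox5 value rested on replicate 2, as single libraries were at 0.133% to 2.55% and the mean without replicate 2 was 0.571%. The 8 monocyte and macrophage markers were at 0.398% (Cd14) to 4.49% (Fcgr1) of the PM mean there. The Fcgr1 value rested on replicate 3, at 0.342, 0.280 and 1.47 FPKM, and the next highest of these markers was Cd68 at 3.04%. Of the 8 resident markers, 7 were below the range from Cd14 to Fcgr1, at 0.120–0.328%, and Icam2 was above it at 9.72%. In CD11b- B cells the monocyte and macrophage markers ran from 0.0786% (Ccr2) to 1.12% (Cd68), with Cd14, Lyz2 and Csf1r at 0.0850%, 0.0911% and 0.0926%, and Mertk, Fcgr1 and Adgre1 at 0.145%, 0.198% and 0.284%.

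**Figure D4:**
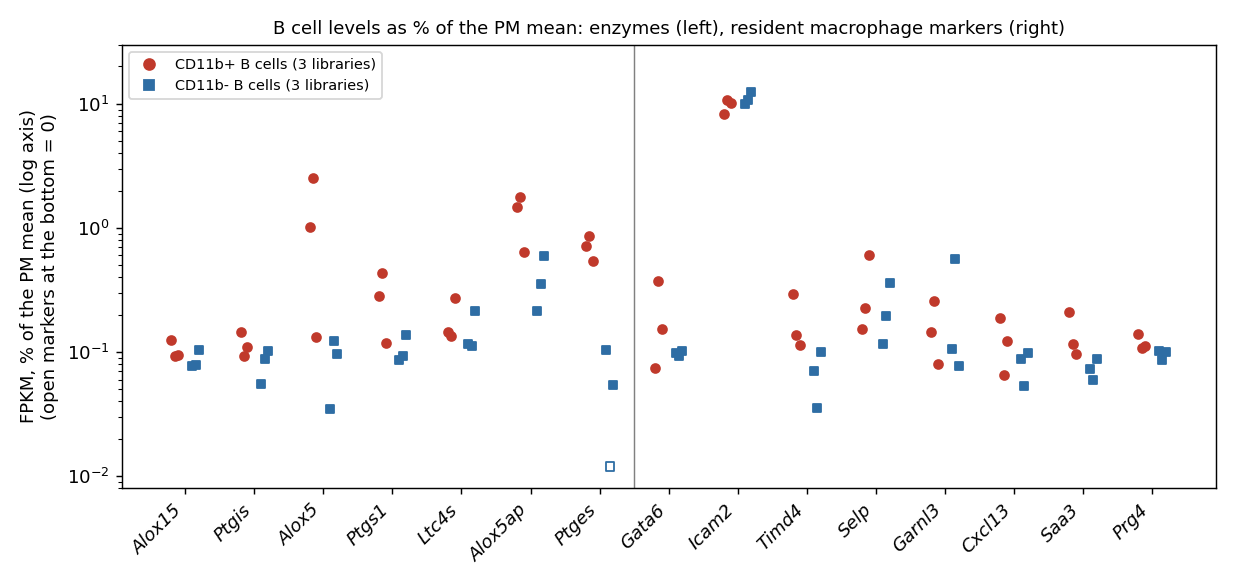
FPKM of each B cell library as a percentage of the PM mean on a log axis, for the 7 members high in PMs (left of the line) and 8 markers of resident peritoneal macrophages (right), with open markers at the bottom for 0. In CD11b- B cells the 7 members average 0.0530–0.388%, and in CD11b+ B cells Alox5 and Alox5ap average 1.23% and 1.30%.

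Between the B cell groups, no member passed the threshold. By limma 0 of 9 tested members were higher in CD11b+ B cells, against 0.0689% of all tested genes, and 0 were lower, against 0% of them. At an unadjusted limma p under 0.05 there was 1 member, Alox5ap, against 7.68% of all genes. edgeR on whole reads called 0 members higher, against 0.269% of all genes it tested, and DESeq2 called 2, Alox5 and Alox5ap, against 1.93% of genes with an adjusted p. In size, Alox5ap differed most on the tested scale, by 1.30 ± 0.38 (95% CI 0.41 to 2.18; limma, adjusted p = 0.482). It was followed by Alox5 with 0.66 ± 0.29 (95% CI -0.02 to 1.33), Hpgds with 0.43 ± 0.20 (95% CI -0.04 to 0.89) and Ptgs1 with 0.34 ± 0.19 (95% CI -0.09 to 0.77), with adjusted limma p of 0.660, 0.676 and 0.691. Without CD11b+ replicate 2 the order changed, as the difference was 0.34 for Alox5, 0.40 for Hpgds and 0.20 for Ptgs1. DESeq2 gave a log2 fold change of 3.83 for Alox5 (adjusted p = 0.00290) and of 1.72 for Alox5ap (adjusted p = 0.0284), whereas edgeR gave 3.81 (adjusted p = 0.312) and 1.73 (adjusted p = 0.368). Differences were positive for 8 of 9 members, with a median of 0.22 against 0.03 over all genes. The share of all genes with a positive difference was not counted, and their median was also above 0. Alox5, Alox5ap, Ptges and Hpgds were higher in every CD11b+ library than in every CD11b- library, 4 of 9, where 8.63% of all genes were. Ptges was tested only through the CD11b+ libraries and dropped below the minimum without replicate 1 or 2 of them. Leaving it out, 3 of 8 did not overlap and 7 of 8 differences were positive. None of the 9 was lower in this way, against 6.32% of all genes.

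The CD11b+ libraries were not ordered alike in all members. In 5 of 10 (Alox5, Alox5ap, Ptgs1, Ptges and Lta4h) replicate 2 was highest and replicate 3 lowest, as in the neutrophil marker sum of 640, 1540 and 215 FPKM and in 7 of the 10 neutrophil markers, though not in Ly6g, Elane or Mpo. Alox15, Ptgis, Ltc4s, Hpgds and Ptgs2 had other orders. How many of all genes had replicate 2 highest and replicate 3 lowest was not counted. The monocyte and macrophage sum of 281, 260 and 82.5 FPKM followed Lyz2, at 261, 240.3 and 65.4 FPKM, and the sum of its other 7 markers, to which Cd68 gave 9.70, 11.6 and 9.86, was 17.1 to 20.02 FPKM. Csf1r (3.56, 3.19 and 1.36 FPKM), Mertk (0.369, 0.352 and 0.118) and Ccr2 (0.549, 0.192 and 0.0126) were lowest in replicate 3, Fcgr1 was highest there at 1.47, and 0 of the 8 markers had replicate 2 highest and replicate 3 lowest. Neutrophils are known for both Alox5 and Alox5ap. With 3 libraries no relation between these values was computed, and the part of other myeloid cells in the levels of Alox5, Alox5ap and Ptgs1 was not tested. The methods describe the removal of Gr-1+ cells for B cell sorting in general, and do not name it again for these libraries.

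**Figure D5:**
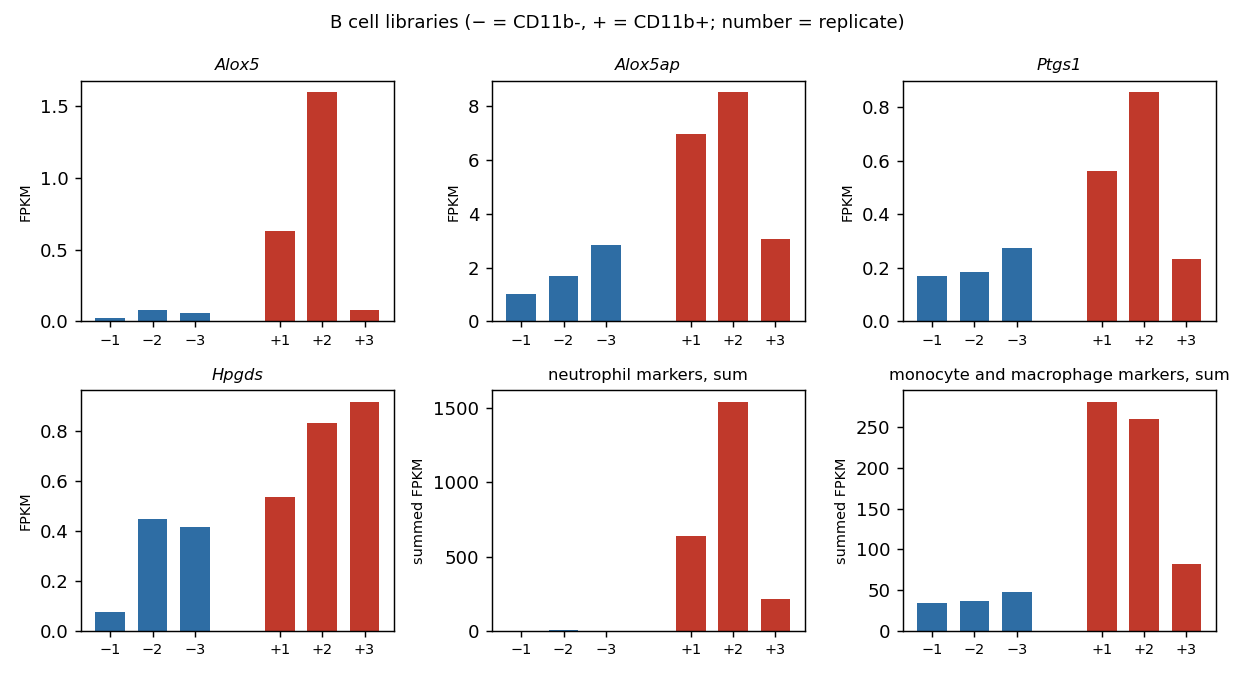
FPKM of Alox5, Alox5ap, Ptgs1 and Hpgds and summed FPKM of 10 neutrophil and 8 monocyte and macrophage markers in each of the 6 B cell libraries, with 1 bar per library. Replicate 2 of the CD11b+ B cells has the highest bar for Alox5 (1.59), Alox5ap (8.50), Ptgs1 (0.856) and the neutrophil sum (1540), and replicate 3 has the lowest CD11b+ bar for these.

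Beyond the members, 52 other genes of the pathway were matched in 4 roles. Between B cell groups 33 of them were tested by limma and 0 passed in either direction. Against PMs, 35 were tested in each comparison, and 4 were higher and 12 lower in CD11b+ B cells, against 21.5% and 8.78% of all tested genes. In CD11b- B cells 6 were higher and 13 lower, against 25.8% and 11.0%. Leaving out genes under 0.05 FPKM on average in the lower group, these were 3 and 12 of 31 and 5 and 9 of 27. Of the 11 phospholipases A2, 2 of 7 tested were lower in both comparisons. Pla2g4a, the cytosolic enzyme that releases arachidonic acid, was at 2.61, 4.64 and 4.72 FPKM in PMs, at 0.698, 0.305 and 0.0311 in CD11b+ B cells and at 0.656, 0.619 and 0.0683 in CD11b- B cells. Pla2g15, a lysosomal enzyme, was at 48.5 FPKM in PMs, 6.03 in CD11b+ and 7.90 in CD11b- B cells. Pla2g12a, a secreted one, was at 4.23, 4.43 and 5.00 FPKM in that order and did not pass.

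Among 17 other synthases, 1 of 10 tested was higher and 4 lower than in PMs in CD11b+ B cells, and 2 of 9 were higher and 4 lower in CD11b- B cells, beside the shares of all genes just given. Tbxas1 and Dpep2 were under 0.05 FPKM on average in CD11b- B cells and were tested there only through PMs, and leaving such genes out, 2 of 6 were higher and 2 lower. Of the 2, Ptges2, a prostaglandin E synthase, kept its call (limma, adjusted p = 0.0446) in 7 of 15 alternatives and lost it with median-ratio scaling, edgeR and DESeq2 among others. Tbxas1, the thromboxane synthase, was at 17.4, 26.9 and 30.2 FPKM in PMs, against 0.160 FPKM on average in CD11b+ and 0.0229 in CD11b- B cells. Prxl2b, a prostaglandin F synthase, fell from 55.2 FPKM in PMs to 5.89 and 2.84. Dpep2, a dipeptidase that acts on leukotriene D4, fell from 9.11 FPKM to 0.0547 and 0.0330. Mgst2, a microsomal enzyme that can also make leukotriene C4, went the other way from Ltc4s. It was at 0.630, 0.777 and 0.120 FPKM in PMs, at 17.1, 14.0 and 12.1 in CD11b+ B cells and at 14.7, 12.4 and 14.9 in CD11b- B cells, a limma difference from PMs of 3.37 ± 0.30 (adjusted p = 0.000105) and 3.34 ± 0.27 (adjusted p = 7.77e-05). In PMs the mean of Ltc4s was thus 560 and that of Mgst2 0.509 FPKM, and in CD11b- B cells they were 0.824 and 14.0. Ptges3, a cytosolic prostaglandin E synthase and co-chaperone, was at 61.9, 48.7 and 47.8 FPKM in CD11b+ B cells, CD11b- B cells and PMs and passed in no comparison.

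Of the genes for breakdown and transport, Cyp4f18, which hydroxylates leukotriene B4, was at 13.0, 15.5 and 25.7 FPKM in PMs, at 174, 183 and 195 in CD11b+ B cells and at 120, 162 and 315 in CD11b- B cells. It was higher than in PMs by 3.33 ± 0.25 and 3.33 ± 0.39 (limma, adjusted p = 4.84e-05 and 0.000523). Ptgr1, a leukotriene B4 dehydrogenase, was lower than in PMs in CD11b+ B cells by -2.14 ± 0.28 (limma, adjusted p = 0.000900). Ptgr2 was higher in both B cell groups, by 1.05 ± 0.29 and 1.23 ± 0.27 (limma, adjusted p = 0.0283 and 0.00941). Its call was kept in 9 of 15 alternatives with CD11b+ and in 13 of 15 with CD11b- B cells. Median-ratio scaling (limma, adjusted p = 0.156 and 0.0649) and edgeR lost it in both, and DESeq2 lost it with CD11b+ B cells. The transporter Abcc4 was higher in CD11b- B cells by 1.41 ± 0.30 (limma, adjusted p = 0.00881).

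Of the receptors, Tbxa2r was high in B cells and several others were high in PMs. Tbxa2r, the thromboxane receptor, was at 0.0289, 0.0357 and 0.0516 FPKM in PMs, at 7.59, 8.44 and 8.74 in CD11b+ B cells and at 9.04, 10.6 and 17.1 in CD11b- B cells. Its differences from PMs were 3.15 ± 0.28 and 3.63 ± 0.30 (limma, adjusted p = 0.000102 and 9.12e-05). With 5 reads and a mean under 0.05 FPKM in PMs, it was tested only through the B cells, in which it was higher. Tbxas1 and Tbxa2r, the synthase and the receptor of thromboxane, were thus high in opposite groups. Cmklr1, which binds chemerin and resolvin E1, fell from 88.0, 78.1 and 45.4 FPKM in PMs to 0.113 on average in CD11b+ and 0.0911 in CD11b- B cells. Ptgir, the prostacyclin receptor, was at 10.1 FPKM in PMs, beside Ptgis at 192, and at 0.0540 and 0.0150 in the B cell groups. In all, 1 of 10 tested receptors was higher and 5 lower in CD11b+ B cells than in PMs, and 1 of 11 higher and 7 lower in CD11b- B cells, where of all tested genes 21.5% and 25.8% were higher and 8.78% and 11.0% lower in the same order of groups. Leaving out receptors under 0.05 FPKM on average in the lower group, 0 were higher in either comparison, and 5 of 9 were lower with CD11b+ and 5 of 8 with CD11b- B cells. Ltb4r1, the high-affinity leukotriene B4 receptor, is named here after its values were seen. It was at 1.61, 2.93 and 0.977 FPKM in CD11b+ B cells and at 0.0215, 0.0206 and 0 in CD11b- B cells, without overlap, a difference of 1.43 ± 0.27 (limma, adjusted p = 0.193). edgeR and DESeq2 on whole reads called it higher (adjusted p = 0.0482 and 4.52e-06). With 2 reads in CD11b- B cells it was tested by limma only through the CD11b+ libraries, which also held the neutrophil transcripts given above.

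The genes nearest to each member over the 9 libraries were found among 11166 candidates, by the root mean square difference of centred log2(FPKM + 1). For Alox15 they were Retnla (0.24), Prg4 (0.27) and Pf4 (0.33), with PM means of 5871, 2021 and 2844 FPKM. For Ltc4s they were Apoc1, Timd4 and Emilin2 (0.28–0.32), for Ptgs1 Pmp22, Padi4 and Nupr1 (0.11–0.17), and for Ptgis Ccl24, F10 and Pmp22 (0.14–0.18). For Ptges they were Itpripl2, Cxcl2 and Efnb2 (0.11 each). Alox5 was nearest to Pilra (0.16), Cd300ld (0.31) and Pilrb2 (0.32), and Alox5ap to Slc11a1 (0.31), Csf1r (0.32) and S100a1 (0.39). Pilra, an inhibitory receptor of myeloid cells, was at 71.3, 1.23 and 0.122 FPKM in PMs, CD11b+ and CD11b- B cells, a likeness to Alox5 that the choice of nearest genes fixes. Lta4h was nearest to Tsg101, Rdx and Trmt10a (0.15 each).

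On GRCm38 in GENCODE M21, the members lie on 6 chromosomes. Alox15 is at chr11:70344152-70352031, Ltc4s at chr11:50236461-50238616, Alox5 at chr6:116410077-116461178, Hpgds at chr6:65117293-65144908, Alox5ap at chr5:149264767-149288153 and Lta4h at chr10:93453411-93484875. Ptgs1 is at chr2:36230426-36252272, Ptges at chr2:30889471-30929863, Ptgis at chr2:167191805-167240604 and Ptgs2 at chr1:150100031-150108227. Another annotated gene overlaps Alox5ap, Ptgs1, Ptgis, Ptges, Hpgds and Ltc4s. Whether strand was used in counting is not stated by the sources read here, so reads of these 6 could include some of a partner.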

How the data were processed

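Sorted cells of 9 libraries in 3 groups were assigned from the sample labels. Per the labels and the methods of the study, the authors made SMART-seq HT cDNA libraries and trimmed the reads with Trim Galore 0.4.4, Trimmomatic 0.36 and cutadapt 1.16. They mapped them with STAR 2.7.2b to GRCm38 (the labels also list GRCm39) and counted reads on genes with featureCounts 1.6.1, and replicates were not pooled. The authors deposited FPKM for 55322 genes, that is counts divided by exon length and by reads on genes. They also deposited normalized counts, a signal per gene divided by a DESeq2 size factor per library, for 11063 genes selected by a p-value of 0.05 in a comparison that is not stated. The authors deposited exon length and gene cluster beside these.

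FPKM times length, divided by the smallest step of a library, gave whole reads for 100% of values within 0.05 of a read, and 100% of the values of the second table gave equal reads. A count of 0 allows up to 3 reads, and such limits cover counting error only, since amplified reads are not molecules. The unit was FPKM, so the main test was limma 3.58.1 (R 4.3.3; lmFit, eBayes with trend, two-sided) on log2(FPKM + 1). It was fitted to the 6 libraries of a comparison over every gene whose mean FPKM reached 0.05. The p-values were adjusted over all of these by the Benjamini-Hochberg method and called below 0.05. Exact permutation tests ran over all 20 orderings. The fits were tried on simulated data, with changes placed only in genes averaging at least 1 FPKM. Changes in lower genes were not covered. Alternatives were pseudocounts of 0.1 and 0.01, no filter, a minimum mean FPKM of 1, all 9 libraries, a replicate block, median-ratio scaling, edgeR 4.0.16 (quasi-likelihood test) and DESeq2 1.42.0 on whole reads, and each library left out.

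The members and lists were chosen with earlier results of these data known. Named genes were all members, and per role of the pathway and comparison up to 3 with the largest change among those past the threshold and up to 3 with the highest mean FPKM. For each member at a mean of 1 FPKM or more, the 3 nearest genes were named, leaving out immunoglobulin segments and unnamed gene models. Some markers are not reported here. Dpep2 has more than one identifier and the higher was used. Positions came from GENCODE M21 by gene identifier. Of the identifiers, 52046 were in that release and 1462 of these had the same start in the deposited table, so the positions in the table served only to find overlapping genes. Promoters came from RefSeq on GRCm38.p6.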

Additional observations from a re-analysis of the deposited data

How the results depend on the processing

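The 7 members lower than PMs kept their direction and call in both B cell groups under all 15 alternatives, and between the B cell groups no alternative called a member lower with CD11b. The count of members higher with CD11b was 2 with DESeq2 on whole reads and 0 in all other settings, with each library left out included (0 to 0). Of members higher than PMs, the CD11b+ B cells had 0 with no filter on FPKM, where the limma adjusted p of Hpgds was 0.0570, 0 with a minimum mean FPKM of 1, where Hpgds was not among the genes tested, and 0 to 1 when single libraries were left out. The CD11b- B cells had 0 to 1 when single libraries were left out. Small differences changed sign. Lta4h in CD11b+ against CD11b- B cells was 0.10 without CD11b- replicate 1 and 0.20 without CD11b+ replicate 3, and its range with single libraries left out was -0.23 to 0.20. Ltc4s was -0.021 without CD11b+ replicate 3, with a range of -0.021 to 0.29. Lta4h in CD11b+ B cells against PMs was -0.38 with median-ratio scaling, -0.37 with edgeR, -0.38 with DESeq2, -0.12 without PM replicate 2, and -0.02 and -0.07 without CD11b+ replicates 1 and 2, with a range of -0.12 to 0.36 over single libraries left out. In CD11b- B cells against PMs it was -0.34, -0.35 and -0.36 with the same 3 methods, -0.056 without PM replicate 2 and -0.0057 without CD11b- replicate 1, with a range of -0.056 to 0.32. The cause of these changes was not tested.

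Over all genes, 4760 were higher and 1940 lower in CD11b+ B cells relative to PMs, and 2922 and 2566 with median-ratio scaling. With CD11b- B cells these were 5404 and 2306, and 3411 and 3088. Across alternatives the counts were 2850–5658 higher and 1348–3455 lower with CD11b+, and 3200–5837 higher and 1657–4143 lower with CD11b- B cells. Between B cell groups 15 genes were higher and 0 lower, and 0–356 higher and 0–53 lower across alternatives, of which 3–40 higher with single libraries left out. A replicate block changed the call of no member. With the block by title number, 16 genes were higher between B cell groups, and 0 with the block by the number in the description, where 2 numbers are shared. Deviations of B cell libraries with the same title number correlated at 0.203, -0.0115 and 0.167, and CD11b+ replicate 2 correlated best with CD11b- replicate 1 (0.0988), so the title numbers were not taken to pair the libraries. The 2 pairs at 0.203 and 0.167 also share the number in the description and are the highest of the 9 correlations. The labels do not say whether that number marks a shared mouse, so a pairing of these 2 cannot be told apart from a shared number. Among low values, 3 to 36 reads over a group, as for Ptges in B cells, limit any comparison of size.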

Other observations

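Markers of further cell types were read beside the enzymes and stand here as values. Megakaryocyte and platelet markers, the cells known for Ptgs1 and Tbxas1, summed to 4.87–7.76 FPKM in CD11b+ B cells and 2.67–4.85 in CD11b- B cells. Most of these sums was Pf4, which averaged 4.83 FPKM in CD11b+ and 3.24 in CD11b- B cells. The PM sums were 2258–3290, where Pf4 made nearly all of the sum (2844 FPKM on average) and Ppbp, Gp1bb, Gp9, Gp5 and Treml1 were at 0. Eosinophil markers summed to 18.5–25.5, 12.5–17.3 and 20.1–41.4 FPKM in the same order, with Prg2, Epx, Ear1, Ear6 and Ccr3 at 0 in PMs, where Ear2 was at 32.3. In the B cell groups Il5ra made most of the sum, at 12.3 FPKM in CD11b+ and 13.8 in CD11b- B cells, Prg2 was at 3.94, 3.60 and 13.7 FPKM against 0.286, 0 and 1.97, and Ear2 averaged 1.76 and 0. Stromal and endothelial markers summed to 33.6–40.0, 44.1–52.2 and 5.11–6.70 FPKM, of which Pecam1 alone averaged 36.8 and 46.6 in the B cell groups. Dendritic cell markers summed to 54.2–80.5, 39.7–45.9 and 126–197 FPKM, of which Bst2 alone averaged 63.2, 41.9 and 159, and the other 6 summed to 1.52–2.63, 0.734–1.44 and 1.41–8.74 FPKM. T and NK cell markers summed to 0.169–1.5004, 0–1.76 and 0.335–9.27 FPKM.

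Among the other pathway genes, 3 of 36 with an adjusted p were higher in the CD11b+ of the B cell groups by DESeq2 on whole reads, against 1.93% of all genes. They are Ltb4r1, Fpr2 and Ggt5, and they are named after their values were seen. Fpr2, a receptor for formyl peptides and lipoxin A4, was at 2.29, 2.48 and 0.241 FPKM in CD11b+ B cells and at 0.254, 0 and 0 in CD11b- B cells (DESeq2, adjusted p = 0.0276; limma, adjusted p = 0.557). Ggt5, which trims leukotriene C4, was at 0.448, 0.39998 and 0.781 FPKM against 0.0911, 0.0532 and 0.126 (DESeq2, adjusted p = 0.00170; limma, adjusted p = 0.501). Hpgd, the enzyme that inactivates prostaglandins, is outside the rule for named genes. It was at 1.38, 0.681 and 2.71 FPKM in CD11b+ and at 0, 0.409 and 0 in CD11b- B cells, short of the threshold (limma, adjusted p = 0.447).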
